A study of Mus musculus with 8 samples.

Results

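The BCL2 family decides whether the outer membrane of the mitochondrion stays closed or is breached, the step that commits a cell to the intrinsic route of apoptosis. The 10 genes described here were chosen by symbol as the survival members that senolytic drugs bind and the death-promoting members that act against them, and all 10 were found among the 25240 rows of the count table. Survival proteins (encoded by Bcl2, Bcl2l1, Bcl2l2 and Mcl1) hold the pore-forming effectors BAX and BAK (encoded by Bax and Bak1) in check. BH3-only proteins (encoded by Bcl2l11, Bbc3, Pmaip1 and Bmf), so named after the short helix with which they bind, occupy the survival proteins or activate the effectors. Senescent cells are known for resisting apoptosis through survival proteins, and drugs such as navitoclax, which binds BCL2, BCL-XL and BCL-W, were tried against them for that reason.

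The table covers 8 RNA-seq libraries of mouse kidney cells, 4 titled Tomato-positive and 4 titled Tomato-negative. Both groups came from p16-tdTomato mice, whose genotype name joins the senescence marker p16 (from Cdkn2a) with a red fluorescent protein, and in both chronic kidney disease had been induced with adenine in the diet, so that no library of healthy kidney stands beside them. The labels name the cells as proximal tubular epithelial cells and give no age, sex, strain, way of separating the cells or construction of the reporter. Each title identifier (CKD523_2, CKD523_3, CKD627_1 and CKD627_2) is shared by 1 positive and 1 negative library, and the labels do not say that it stands for an animal or what the prefixes CKD523 and CKD627 mean.

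Libraries held between 13474439 and 19886202 counts. The reporter lay between 3227 and 4188 CPM (counts scaled to library size, with TMM factors) in Tomato-positive and between 87.3 and 152 CPM in Tomato-negative libraries, while Cdkn2a had 6 to 57 counts in positive and 4 to 39 counts in negative libraries. Markers of the labelled cell type were present in each library, with a summed level of 12 proximal tubule markers between 3808 and 10534 CPM in positive and between 6007 and 25696 CPM in negative libraries. Markers of other nephron segments were present too: 7 of principal cells summed to 989 to 4295 CPM in positive and 209 to 1767 CPM in negative libraries. The 5 thick ascending limb markers summed to 1667 to 6468 CPM in positive and 3880 to 13889 CPM in negative libraries. Within prefix CKD627 they summed to 5358 to 13889 CPM, and the 12 proximal tubule markers to 3808 to 7193 CPM. Of 9 leukocyte markers, Cd3e had no count and 3 passed the filter on low counts, and the list summed to 4.85 to 19.2 CPM in positive and 7.19 to 25.8 CPM in negative libraries. In such mixtures, fewer cells of a type and less RNA per cell cannot be told apart.

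The 4 survival genes and both effector genes did not pass the test in either fit, and their levels in Tomato-positive and Tomato-negative libraries overlapped. Of the 4 BH3-only genes among the 10, Pmaip1, Bcl2l11 and Bmf rose in Tomato-positive cells when libraries were paired by identifier, each in 4 of 4 pairs, by 1.98-fold, 1.91-fold and 1.53-fold (18.0% of all genes were higher in 4 of 4 pairs). Bbc3 did not pass and was higher in 3 of 4 pairs. Bad, Bik and Bid, further BH3-only genes that are not among the 10, had negative paired differences that did not pass. In the unpaired fit none of the 10 members passed (edgeR; adjusted p under 0.05 over all 14284 genes tested), with 3 at an unadjusted p under 0.05 (Bcl2l11, Bbc3 and Pmaip1, against 17.8% of all genes), 2 past the threshold by DESeq2 and none by limma-voom. The unpaired fit called 0.595% of all genes and the paired fit 7.62%, with 3.82% of all genes called as higher and 3.81% as lower in Tomato-positive cells. Of the 10 members, 3 (all BH3-only genes) were called as higher with the pairing. All 10 members passed the filter on low counts.

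**Figure D1:**
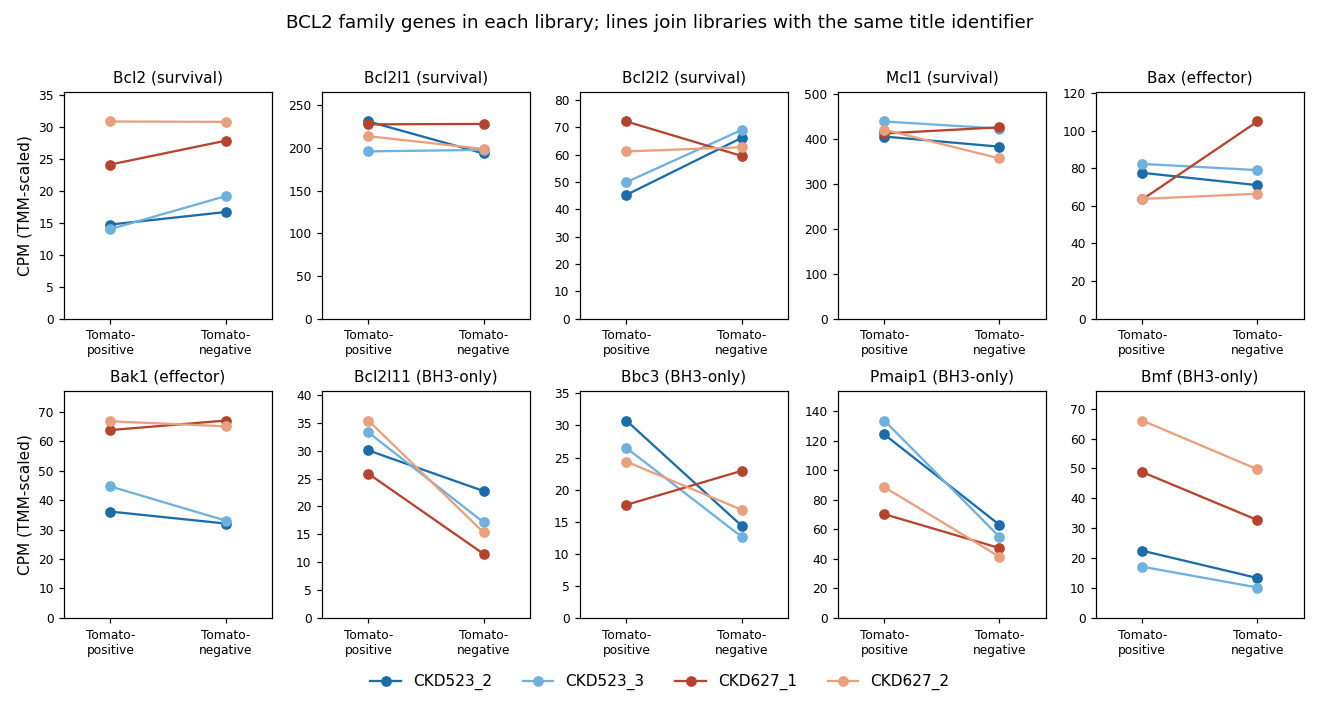
Level of each of the 10 genes in CPM (y axis, TMM-scaled, from 0), in Tomato-positive libraries on the left and Tomato-negative libraries on the right of each panel; points are libraries, and lines join libraries that share a title identifier (blue for prefix CKD523, red for prefix CKD627). All 4 lines of Bcl2l11, Pmaip1 and Bmf run higher on the positive side, and the levels of Bcl2, Bak1 and Bmf separate by prefix.

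Pmaip1 encodes NOXA, a BH3-only protein that binds mainly MCL1 and is induced by p53 and by stress signalling. It lies on chromosome 18 of mm10 (66458533 to 66465565, plus strand). Its level in Tomato-positive cells was 124, 134, 70.2 and 88.5 CPM (CKD523_2, CKD523_3, CKD627_1 and CKD627_2), against 63.0, 54.8, 47.2 and 41.4 CPM in Tomato-negative cells. The lowest positive library thus lay above the highest negative one, which was the case for 6.74% of all genes (6.48% in the other direction). The means were 104 ± 29.8 CPM in Tomato-positive and 51.6 ± 9.37 CPM in Tomato-negative cells (SD, n = 4 each). The log2 difference was 0.98 ± 0.15 (SE) with the pairing (edgeR adjusted p = 0.00924) and 1.01 ± 0.23 (SE) without it (edgeR adjusted p = 0.075). The difference was 1.13 within prefix CKD523 and 0.83 within prefix CKD627 on the log2 scale. The paired call was lost without the pair CKD523_3 (0.86, edgeR adjusted p = 0.0743) and without the pair CKD627_2 (0.94, edgeR adjusted p = 0.0524), and over 9 alternatives of the paired fit its adjusted p ran between 2.87e-06 and 0.0743.

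Bcl2l11 encodes BIM, which binds all the survival proteins and can activate BAX and BAK directly. Its gene lies on chromosome 2 (128126038 to 128162547, plus strand). Its level in libraries CKD523_2, CKD523_3, CKD627_1 and CKD627_2 was 30.1, 33.3, 25.9 and 35.4 CPM in Tomato-positive cells, against 22.8, 17.2, 11.5 and 15.3 CPM in Tomato-negative cells. As for Pmaip1, the positive and negative libraries did not overlap. The smallest step was that of the pair CKD523_2, with a log2 difference of 0.40, and the other 3 pairs lay between 0.95 and 1.20. Bcl2l11 averaged 31.2 ± 4.16 CPM in Tomato-positive and 16.7 ± 4.70 CPM in Tomato-negative cells (SD, n = 4 each). The paired log2 difference was 0.93 ± 0.19 (SE; edgeR adjusted p = 0.0229) and the unpaired one 0.90 ± 0.22 (SE; edgeR adjusted p = 0.0942). Without the pair CKD523_3 or CKD627_2 the paired call was lost at like size (0.90, edgeR adjusted p = 0.119, and 0.84, edgeR adjusted p = 0.107), and the adjusted p ran between 0.00106 and 0.119 over 9 alternatives.

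Bmf encodes a BH3-only protein that is tethered to the cytoskeleton through the dynein light chain and is known for its part in death after loss of attachment. The gene lies on chromosome 2 (118528757 to 118549687, minus strand). Bmf stood at 22.5, 17.1, 48.8 and 66.0 CPM in Tomato-positive cells (identifiers in the same order), against 13.3, 10.2, 32.7 and 49.7 CPM in Tomato-negative cells. The positive library was higher in each pair, by between 0.41 and 0.75 on the log2 scale, but the groups overlapped, because both libraries of each CKD627 pair lay above those of the CKD523 pairs. The means were 38.6 ± 22.9 CPM in Tomato-positive and 26.5 ± 18.4 CPM in Tomato-negative cells (SD, n = 4 each). Bmf passed only with the identifier as a block (log2 0.62 ± 0.15 SE, edgeR adjusted p = 0.0409, against 0.54 ± 0.57 SE, edgeR adjusted p = 0.661 without the block). That call was the least stable of the 3. Its adjusted p was 0.0535 with upper-quartile factors in edgeR and 0.0506 in limma-voom. In edgeR without the pairs CKD523_2, CKD523_3 and CKD627_2 it was 0.136, 0.193 and 0.122, within a range of 0.0152 to 0.193 over 9 alternatives. With the prefix as a covariate instead of the block, Bmf did not pass (0.61, edgeR adjusted p = 0.0666). Pmaip1 (edgeR adjusted p = 0.00203) and Bcl2l11 (edgeR adjusted p = 0.0133) did.

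Bbc3 encodes PUMA, a p53-induced BH3-only protein that binds all the survival proteins. It lies on chromosome 7 (16308393 to 16318205, plus strand). In the same order, the Tomato-positive libraries held 30.8, 26.5, 17.6 and 24.4 CPM, and the Tomato-negative ones 14.4, 12.7, 22.9 and 16.9 CPM. Both CKD523 pairs were higher in Tomato-positive cells by over 1 on the log2 scale (1.09 and 1.06), the pair CKD627_2 was higher by 0.53, and the pair CKD627_1 stood at -0.38. Bbc3 averaged 24.8 ± 5.48 CPM in Tomato-positive and 16.7 ± 4.49 CPM in Tomato-negative cells (SD, n = 4 each), and with the pairing it differed by 0.58 ± 0.26 (log2, SE; edgeR adjusted p = 0.209), short of the threshold. It passed in edgeR without the pair CKD627_1 (0.90, edgeR adjusted p = 0.0255), the only pair in which it was lower. It also passed in the unpaired fit of prefix CKD523 alone (1.08, edgeR adjusted p = 0.00601). These fits called 1319 of 14252 and 2231 of 14183 genes. Over 9 alternatives of the paired fit the adjusted p of Bbc3 ran between 0.0255 and 0.537.

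**Figure D2:**
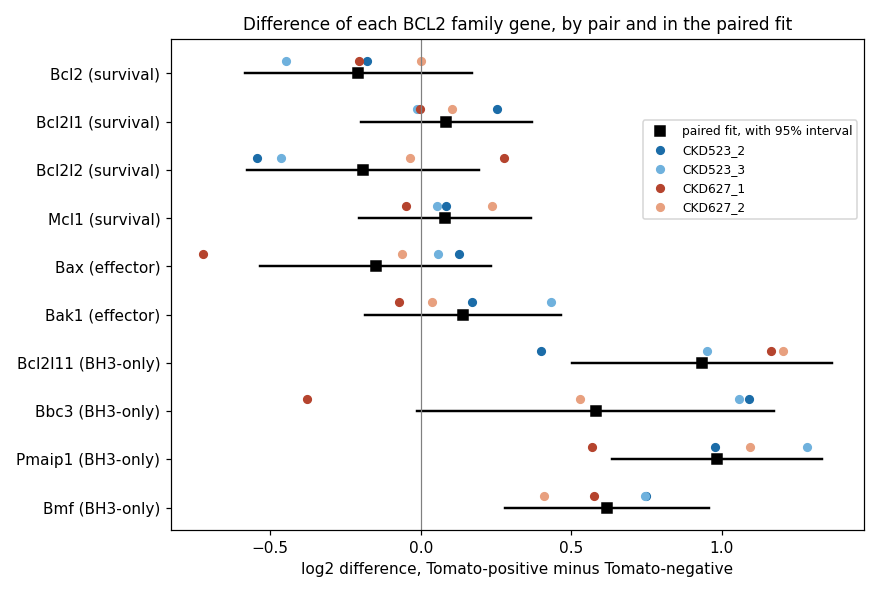
Log2 difference of each gene, Tomato-positive minus Tomato-negative (x axis); coloured points are the 4 pairs, black squares the paired fit and black lines its 95% interval, which rests on the spread between libraries. The intervals of Bcl2l11, Pmaip1 and Bmf lie above 0, that of Bbc3 reaches -0.01, and those of the 6 survival and effector genes include 0.

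The sequence before the start site is shown for the called members that the RefSeq table (GRCm38.p6) holds, Bcl2l11 and Bmf, and for Bax, the only other member with a match to the motifs searched. The windows of Bcl2, Bcl2l1, Bcl2l2, Mcl1, Bak1 and Bbc3 were searched too and held none, so that 2 of the 9 members in the table had a match. Each run is the 250 bases before the most upstream start in the table, 5′ to 3′ on the strand of the gene: chr2:128125788-128126037 (plus strand) for Bcl2l11, chr2:118549687-118549936 (minus strand) for Bmf and chr7:45466899-45467148 (minus strand) for Bax. Capitals mark matches on either strand to the FOXO motif GTAAACA, the AP-1 motif TGANTCA or the half-site of p53, transcription factors known to act on genes of this family.
Bcl2l11: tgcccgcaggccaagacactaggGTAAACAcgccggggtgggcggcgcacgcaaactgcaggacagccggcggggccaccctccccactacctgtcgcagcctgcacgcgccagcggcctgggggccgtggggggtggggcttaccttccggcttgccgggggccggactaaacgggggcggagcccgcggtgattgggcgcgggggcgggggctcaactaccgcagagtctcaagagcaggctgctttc
Bmf: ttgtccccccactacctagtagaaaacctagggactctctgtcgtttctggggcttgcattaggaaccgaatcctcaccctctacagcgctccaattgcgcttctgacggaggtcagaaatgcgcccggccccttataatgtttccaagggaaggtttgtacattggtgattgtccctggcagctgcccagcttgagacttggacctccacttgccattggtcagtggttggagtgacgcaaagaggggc
Bax: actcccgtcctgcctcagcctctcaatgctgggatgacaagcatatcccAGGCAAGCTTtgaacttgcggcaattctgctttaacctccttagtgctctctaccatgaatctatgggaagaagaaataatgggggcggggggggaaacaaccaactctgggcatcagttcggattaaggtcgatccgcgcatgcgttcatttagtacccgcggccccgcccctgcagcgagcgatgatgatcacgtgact
Bcl2l11 held 1 match, to the FOXO motif, which begins at position -227 from the start. Such a match was present in 3.06% of 27025 promoters of the same length. Bax held 1 match to the p53 half-site, which begins at position -201, against 7.16% of all promoters with at least 1. Bmf held no match to these letters in this window, and no AP-1 match was found in the 9 windows (6.85% of all promoters had one). The mRNA of Foxo1 (paired log2 difference 0.16, edgeR adjusted p = 0.678), Foxo3 (0.31, edgeR adjusted p = 0.244) and Trp53 (0.26, edgeR adjusted p = 0.372) did not pass. The value of Foxo1 averages -0.25 within prefix CKD523 and 0.57 within prefix CKD627. The part of these factors in the levels of Bcl2l11 and Bax was not tested. Bcl2l11 and Bmf differed in base composition as well, with 72.0% and 54.0% G and C against a median of 52.0% over all promoters.

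Mcl1 encodes a short-lived survival protein that many cell types need, and was the most abundant member per length of exon. Mcl1 stood at 405, 439, 412 and 420 CPM in Tomato-positive cells (identifiers in the same order), against 383, 423, 426 and 356 CPM in Tomato-negative cells. The 2 groups overlapped, and the means were 419 ± 14.5 CPM in Tomato-positive and 397 ± 33.4 CPM in Tomato-negative cells (SD, n = 4 each). The paired log2 difference was 0.08, with 95% bounds of -0.20 and 0.37 (edgeR adjusted p = 0.733).

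Bcl2l1, which encodes BCL-XL, a main target of navitoclax, behaved likewise. It stood at 231, 196, 227 and 214 CPM in Tomato-positive libraries CKD523_2, CKD523_3, CKD627_1 and CKD627_2, against 193, 198, 228 and 199 CPM in the negative ones. The pair CKD523_2 accounted for the largest step (log2 0.25), and the others lay between -0.01 and 0.10. The means were 217 ± 15.9 CPM in Tomato-positive and 204 ± 15.9 CPM in Tomato-negative cells (SD, n = 4 each). The paired log2 difference was 0.09, with 95% bounds of -0.20 and 0.37 (edgeR adjusted p = 0.718). Reads of the long and short splice forms, which have opposite effects on survival, are not told apart in counts per gene.

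Bcl2, the founding member of the family, and Bcl2l2, which encodes BCL-W, were on the lower side in Tomato-positive cells without passing. Bcl2 held 14.8, 14.1, 24.2 and 30.9 CPM in Tomato-positive libraries CKD523_2, CKD523_3, CKD627_1 and CKD627_2, against 16.7, 19.2, 27.9 and 30.9 CPM in negative ones. The groups overlapped, and the prefixes were further apart than the Tomato groups. Its paired log2 difference was -0.21, with 95% bounds of -0.58 and 0.17 (edgeR adjusted p = 0.484). Bcl2l2 held 45.3, 50.0, 72.2 and 61.2 CPM in Tomato-positive libraries in the same order, against 66.1, 69.0, 59.6 and 62.7 CPM in negative ones. Both CKD523 pairs were lower in Tomato-positive cells, and the CKD627 pairs stood at 0.28 and -0.04 on the log2 scale. The paired log2 difference of Bcl2l2 was -0.19, with 95% bounds of -0.58 and 0.19 (edgeR adjusted p = 0.525). Bcl2l2 was called as lower in the unpaired fit of prefix CKD523 alone (-0.50, edgeR adjusted p = 0.0265), which called 2231 of 14183 genes. Over 20 alternatives of the unpaired fit the adjusted p of Bcl2l2 ran between 0.0265 and 0.851. Over the 4 survival genes, the 95% bounds of the paired fit reached from a fold of 0.667 to a fold of 1.29.

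Bax and Bak1, whose products form the pores, did not pass either. Bax stood at 77.5, 82.3, 63.4 and 63.7 CPM in Tomato-positive libraries CKD523_2, CKD523_3, CKD627_1 and CKD627_2, against 71.0, 79.0, 105 and 66.4 CPM in negative ones. The negative library CKD627_1 was the highest of all 8. The paired log2 difference was -0.15, with 95% bounds of -0.53 and 0.23 (edgeR adjusted p = 0.63), and it was 0.041 without the pair CKD627_1. Bak1 stood at 36.2, 44.7, 63.9 and 66.9 CPM in Tomato-positive libraries in the same order, against 32.1, 33.1, 67.1 and 65.2 CPM in negative ones. Its groups overlapped, and its paired log2 difference was 0.14, with 95% bounds of -0.18 and 0.47 (edgeR adjusted p = 0.586). Bak1 shares 437 and 177 exon bases with 2 annotated genes named Ggnbp1 on the opposite strand. The strand setting of the counts is not given, so how far the overlap affects the value of Bak1 is not known. Bax shares 192 exon bases with Gm45808, Bcl2l2 594 bases with Gm20521 and Bcl2 558 bases with D630008O14Rik, which have no rows of their own in the table.

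Per length of exon (CPM per kilobase of the GENCODE M21 exons), Mcl1 led with 119 as the mean of the 8 libraries, followed by Bax at 48.2, Bcl2l1 at 45.9, Pmaip1 at 28.5, Bak1 at 21.2, Bcl2l2 at 13.6, Bbc3 at 9.77, Bmf at 6.19, Bcl2l11 at 2.98 and Bcl2 at 2.44. The lowest library of Mcl1, at 104 on this scale, lay above every library of the other 9 members. Below it the ranges of neighbours overlapped (40.2 to 66.5 for Bax and 42.2 to 50.3 for Bcl2l1, for example), so that their order is not settled by these libraries. Bcl2l11 (1.43 to 4.41) and Bcl2 (1.54 to 3.38) lay at the low end of the same scale, and the order depends on the exon lengths used.

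Summed on that scale, the BH3-only genes Bcl2l11, Bbc3, Pmaip1 and Bmf made up 21.7, 21.3, 15.4 and 19.3% of the level of the 10 members in Tomato-positive libraries CKD523_2, CKD523_3, CKD627_1 and CKD627_2, against 13.3, 10.8, 11.1 and 12.8% in negative ones. The groups did not overlap, and the sum rests mostly on Pmaip1, the most abundant BH3-only gene. The survival genes made up 59.1 ± 2.49% in Tomato-positive and 62.9 ± 3.07% in Tomato-negative libraries (SD, n = 4 each). The effectors made up 21.5 ± 0.697% in Tomato-positive and 25.1 ± 3.31% in Tomato-negative libraries (SD, n = 4 each). Because the shares of a library add up to the whole, a higher BH3-only share lowers the others. As a sum, the survival genes stood at 185 ± 3.60 in Tomato-positive and 178 ± 11.8 in Tomato-negative libraries (SD, n = 4 each). The effectors stood at 67.5 ± 2.74 and 71.5 ± 15.9, and the BH3-only genes at 61.0 ± 10.3 and 33.9 ± 2.57, in the same order. The BH3-only sum is a partial one, without Bad, Bik and Bid, whose mean levels were lower in Tomato-positive cells. These shares and sums describe mRNA and carry no test, since their members were listed with earlier results known.

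**Figure D3:**
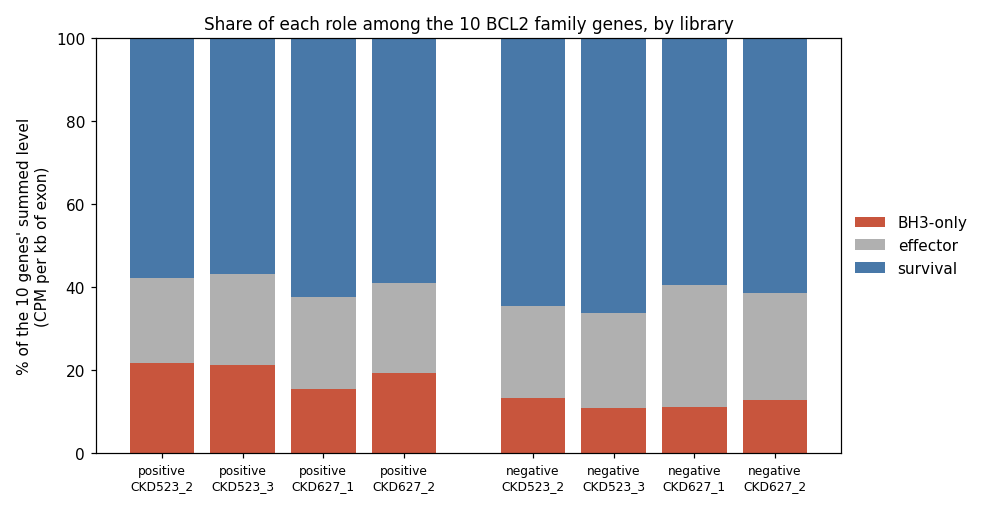
Share of the summed level of the 10 genes (y axis, percent of CPM per kilobase of exon) held by BH3-only, effector and survival genes in each library; Tomato-positive libraries are on the left and Tomato-negative ones on the right. The BH3-only share runs between 15.4 and 21.7% in positive and between 10.8 and 13.3% in negative libraries.

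Some members differed more in level between the title prefixes than between the Tomato groups. Bmf, Bak1 and Bcl2 were each higher in all 4 libraries of prefix CKD627 than in any of prefix CKD523, whereas no member was lower in all 4. Of all genes, 9.52% were higher and 10.4% lower in CKD627 in this way. Bmf lay between 32.7 and 66.0 CPM in CKD627 and between 10.2 and 22.5 CPM in CKD523 libraries, a mean log2 difference of 1.66 (CKD627 minus CKD523). Bak1 lay between 63.9 and 67.1 CPM in CKD627 and between 32.1 and 44.7 CPM in CKD523 libraries (0.86), and Bcl2 between 24.2 and 30.9 CPM in CKD627 and between 14.1 and 19.2 CPM in CKD523 libraries (0.81). Pmaip1 leaned the other way, at -0.56, with overlapping prefixes. No p is given, because libraries that share an identifier are not independent samples of a prefix. The makeup of the libraries moved with the prefix: the 12 proximal tubule markers summed to 3808 to 7193 CPM in CKD627 and 10220 to 25696 CPM in CKD523 libraries, the 6 endothelial markers to 248 to 562 CPM in CKD627 and 45.8 to 197 CPM in CKD523 libraries, and the 9 leukocyte markers to 19.0 to 25.8 CPM in CKD627 and 4.85 to 7.45 CPM in CKD523 libraries. Their part in the levels of Bmf, Bak1 and Bcl2 was not tested.

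Whether the Tomato difference itself differed between the prefixes was tested with an interaction term. None of the 10 members passed in edgeR (20 of 14284 genes did, 0.140%), with 2 at an unadjusted p under 0.05, and none passed in DESeq2, with 2 at an unadjusted p under 0.05. These 2 were Bbc3, whose difference in CKD627 minus that in CKD523 was -1.005 on the log2 scale (edgeR adjusted p = 0.308), and Bcl2l2, at 0.63 (edgeR adjusted p = 0.321). An unadjusted p of that size was reached by 13.8% of all genes. For the called members the difference of CKD627 minus CKD523 was 0.51 for Bcl2l11, -0.30 for Pmaip1 and -0.26 for Bmf.

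Markers of cell types also moved with the Tomato groups in the paired fit. All 7 principal cell markers rose, and 4 of 12 proximal tubule, 4 of 5 thick ascending limb, 3 of 4 distal convoluted tubule and 2 of 5 intercalated cell markers fell. The proximal tubule list was mixed, with 5 markers lower and 1 higher in 4 of 4 pairs. Its median log2 difference was -1.08 within prefix CKD523 and 0.15 within prefix CKD627, and 3 of its markers passed the interaction test. Of the intercalated cell markers, 3 were lower and 1 higher in 4 of 4 pairs. Markers of the distal convoluted tubule summed to 130 to 503 CPM in Tomato-positive and 898 to 1428 CPM in Tomato-negative libraries, with no overlap. None of the tested endothelial, leukocyte, fibroblast or podocyte markers passed in edgeR with the pairing (1 fibroblast and mural cell marker at an unadjusted p under 0.05). The part of the segment markers in the rises of Pmaip1, Bcl2l11 and Bmf was not tested.

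The remaining members of the extended family showed few calls. Of 16 further genes 11 were tested. None passed in the unpaired edgeR fit (2 at an unadjusted p under 0.05, against 17.8% of all genes), and 1 fell when paired. That was Bnip3, an atypical member of the mitochondrial membrane that is induced by hypoxia and acts in mitophagy. It averaged 42.9 ± 6.09 CPM in Tomato-positive and 70.1 ± 7.93 CPM in Tomato-negative cells (SD, n = 4 each), a paired log2 difference of -0.71 ± 0.15 (SE; edgeR adjusted p = 0.0272, 0.0631 unpaired). The median paired difference of the list was -0.05, against 0.01 for all genes tested. Its most abundant members, Becn1, an autophagy protein that BCL2 binds (0.05, edgeR adjusted p = 0.855), and Bok, an effector relative (0.36, edgeR adjusted p = 0.573), did not pass. The value of Bok averages opposite directions, 1.25 within prefix CKD523 and -0.55 within prefix CKD627 on the log2 scale, and the difference between the prefixes was -1.80 (edgeR adjusted p = 0.0745). Of the tested genes of the list, 3 encode further BH3-only proteins (Bad, Bik and Bid). Bad, which is inactivated by survival signalling through phosphorylation, averaged 24.4 ± 3.61 CPM in Tomato-positive and 35.2 ± 7.17 CPM in Tomato-negative cells (SD, n = 4 each). It was lower in 4 of 4 pairs (as were 17.6% of all genes), and the groups did not overlap (6.48% of all genes were lower in this way). Both rest on a narrow gap in the pair CKD523_2, at 29.46 CPM in the positive and 29.51 CPM in the negative library. The paired log2 difference of Bad, -0.52, missed the threshold (edgeR adjusted p = 0.131). Bik stood at -0.79 (edgeR adjusted p = 0.222) and Bid, which links the death receptors to the mitochondrion, at -0.05 (edgeR adjusted p = 0.879). The 5 genes left out by the filter on low counts were Bcl2a1a, Bcl2a1b, Bcl2a1d, Bcl2l10 and Hrk, which had at most 10 counts in any library. Bcl2a1a, Bcl2a1b and Bcl2a1d, survival genes of blood cells, are near-identical copies whose reads may be shared.

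Downstream of the pores, genes of the mitochondrial death pathway moved in both directions. Of 18 genes none passed in the unpaired edgeR fit (7 at an unadjusted p under 0.05, against 17.8% of all genes). With the pairing 2 fell and 1 rose. Cycs, which encodes cytochrome c, the electron carrier whose release starts caspase activation, averaged 46.5 ± 7.52 CPM in Tomato-positive and 95.2 ± 22.6 CPM in Tomato-negative cells (SD, n = 4 each; paired log2 -1.02 ± 0.16 SE, edgeR adjusted p = 0.00887, 0.0587 unpaired). Aifm1, a flavoprotein of the space between the mitochondrial membranes, fell by 0.59 ± 0.13 (SE; edgeR adjusted p = 0.0272 paired, 0.0826 unpaired). Birc3, an inhibitor of apoptosis that is induced by NF-kappaB, averaged 72.3 ± 11.8 CPM in Tomato-positive and 43.7 ± 4.30 CPM in Tomato-negative cells (SD, n = 4 each; paired log2 0.72 ± 0.13 SE, edgeR adjusted p = 0.0163, 0.0619 unpaired). The channel genes Vdac1 (-0.49, edgeR adjusted p = 0.0526 paired) and Vdac2 (-0.26, edgeR adjusted p = 0.262 paired), the most abundant of the list, did not pass. Cycs has processed copies in the genome, so its count may share reads with them. The median paired difference of the list was -0.18.

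In the death receptor pathway, which reaches the mitochondrion through cleavage of BID, 13 of 14 genes were tested. None passed in the unpaired edgeR fit (3 at an unadjusted p under 0.05, against 17.8% of all genes), and 2 rose when paired. Tnfsf10, which encodes the death ligand TRAIL, averaged 61.3 ± 20.1 CPM in Tomato-positive and 36.9 ± 12.6 CPM in Tomato-negative cells (SD, n = 4 each; paired log2 0.73 ± 0.15 SE, edgeR adjusted p = 0.0219, 0.228 unpaired). Tnfrsf1b, a receptor for TNF without a death domain, averaged 16.6 ± 0.737 CPM in Tomato-positive and 8.58 ± 1.53 CPM in Tomato-negative cells (SD, n = 4 each; paired log2 0.97 ± 0.22 SE, edgeR adjusted p = 0.0314, 0.0619 unpaired). Fasl had no count in any of the 8 libraries, which allows up to 3 counts per library. The most abundant genes of the list, Tnfrsf1a (0.06, edgeR adjusted p = 0.828 paired) and Cflar (0.26, edgeR adjusted p = 0.396 paired), did not pass, and the median paired difference was 0.26.

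Of 21 regulators of the family 20 were tested. None passed in the unpaired edgeR fit (4 at an unadjusted p under 0.05, against 17.8% of all genes). The paired edgeR fit called none either (5 at an unadjusted p under 0.05, against 3570 of all 14284 genes). The most abundant were Jun, part of AP-1, at 2727 ± 191 CPM in Tomato-positive and 1947 ± 95.3 CPM in Tomato-negative cells (SD, n = 4 each; paired log2 0.48 ± 0.13 SE, edgeR adjusted p = 0.0598), and Tmbim6, a protein of the endoplasmic reticulum known as BAX inhibitor 1 (-0.42, edgeR adjusted p = 0.0902 paired). The median paired difference was 0.17. Leaving out CKD523_3 took every call of the 4 pathway lists away in the paired fit, and leaving out CKD627_2 or CKD523_2 left 1 call in each case, a gene of the mitochondrial list that was lower. Without CKD627_1 all list counts were as with 4 pairs, apart from 1 regulator called as higher.

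**Figure D4:**
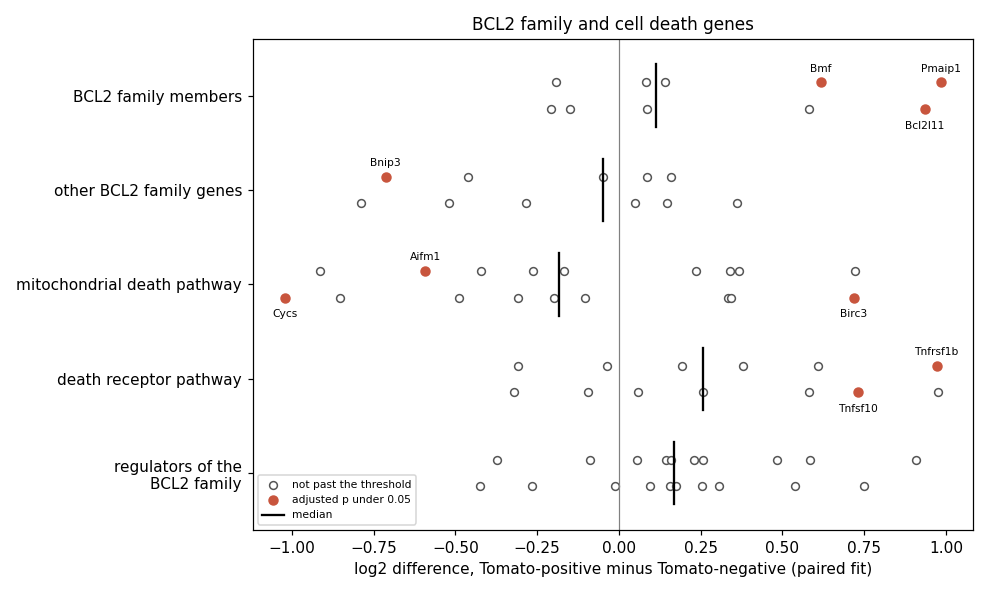
Paired log2 difference, Tomato-positive minus Tomato-negative (x axis), of the tested genes of the 10-gene family set and of 4 related lists (rows); red points have an adjusted p under 0.05 over all genes, and the vertical line in each row is the median of the list. Of the lists, Bnip3, Cycs and Aifm1 lie on the lower side and Birc3, Tnfrsf1b and Tnfsf10 on the higher side.

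Likeness was ranked among 11314 genes with a mean of at least 5 CPM, leaving out predicted genes (Gm and Rik symbols). The genes whose pattern over the 8 libraries was most like that of a called member were picked by Pearson correlation of log2 CPM. They were Spaca6, Ppl, Phlda1, Nipal1 and Gsdmc3 for Pmaip1 (r between 0.968 and 0.991), Pik3c2a, Ddx58, Sptssb, Fermt1 and Srrm1 for Bcl2l11 (0.979 to 0.985), and Six5, Sema6b, Prkd2, Rbfox2 and Ltbp1 for Bmf (0.975 to 0.991). The lists share no gene. The 8 points share identifiers and Tomato groups and are not independent, so these values only describe likeness.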

How the data were processed

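Counts were compared between 4 Tomato-positive and 4 Tomato-negative libraries, with all values taken from 1 table of raw counts per gene symbol that the authors deposited. Alignment was by subread, per the file headers, and the submitters' processing notes name mm10, edgeR (3.32.1) and limma (3.46.0). Not given in the sources used here are the counter, annotation, strand setting and handling of multiply matching reads, which bear on genes with overlaps or copies. The labels' protocols name a single-cell RNA purification kit and NEBNext Ultra library preparation.

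The filterByExpr filter (minimum count 10 in 4 libraries, minimum total 15) kept 14284 genes (56.6%). Tests used edgeR 4.0.16 in R 4.3.3 (TMM, quasi-likelihood, 2-sided, Benjamini-Hochberg over all tested genes, threshold 0.05) without a block and with the title identifier as a replicate block. As a check of the pairing, deviations from the group means were correlated over genes: r was 0.464, 0.321, 0.330 and 0.465 within identifiers, each over the 0.1 required. The identifiers were therefore taken to pair the libraries, although libraries of the same prefix correlated at like size (0.296 to 0.467). The check thus cannot tell pairing by identifier from a shared prefix. Since no label assigns the libraries to separate animals, p-values reflect the spread between these samples, which may be technical. CPM used TMM-scaled totals, with 13.0 to 20.6 counts per CPM, and a count of 0 allows up to 3, for counting error only. The fit was tested on simulated data. Alternatives used DESeq2 1.42.0, limma-voom (limma 3.58.1), other scaling and filters, each prefix, and each library or pair left out. Positions and exon lengths came from GENCODE M21 (GRCm38).

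The 10 members and the lists were chosen with earlier results of these data known. All 10 members were described. Named besides were pathway genes past the threshold in either fit, the 2 most abundant genes of each list, and the 5 genes most like each called member. Foxo1, Foxo3, Trp53, Bad, Bik and Bid were named after their values were seen, as were the genes left out by the filter.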

Additional observations from a re-analysis of the deposited data

Results flagged for a closer look

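Among Tomato-negative libraries, CKD627_1 stood apart in Bcl2l1, at 228 CPM, while the other 3 lay between 193 and 199 CPM. Its Tomato-positive partner was at 227 CPM. Other such values were Tnfsf10 at 55.7 CPM in the Tomato-negative library CKD627_2, Tnfrsf1b at 6.30 CPM in the Tomato-negative library CKD523_3 and Foxo1 at 45.4 CPM in the Tomato-positive library CKD523_3. Of 60 groups looked at in this way (30 named genes in both Tomato groups), 4 held one, where chance gives about 3. Bax stood on opposite sides of 0 in the 2 prefixes: both CKD627 pairs were lower in Tomato-positive cells (-0.72 and -0.06 on the log2 scale) and both CKD523 pairs higher (0.06 and 0.13). The difference of CKD627 minus CKD523 was -0.49 and did not pass (edgeR adjusted p = 0.468). The same held for 4 genes of the related lists. Their differences of CKD627 minus CKD523 were -1.80 for Bok (edgeR adjusted p = 0.0745) and -0.33 for Tnfrsf1a (edgeR adjusted p = 0.51). Cflar stood at 0.66 (edgeR adjusted p = 0.283) and Foxo1 at 0.82 (edgeR adjusted p = 0.256). Of the 30 named genes 5 were thus on opposite sides, and the number that chance gives was not worked out.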

How the results depend on the processing

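The number of genes called depended on the fit. Against 85 genes in the unpaired fit, 1089 were called with the replicate block, 1527 with the prefix as a covariate, 1000 by DESeq2, 45 with no filter on low counts, 2231 in prefix CKD523 alone and 303 in prefix CKD627 alone, and 6 to 26 without any 1 library. The paired count of 1089 was 2026 by DESeq2 and lay between 203 (without CKD523_3) and 1319 without any 1 pair, with 384 without CKD627_2 and 521 without CKD523_2. Of the members, against none unpaired, 3 were called with the replicate block, 2 with the prefix as a covariate, 2 by DESeq2 and 4 in prefix CKD523 alone. With the pairing, leaving out CKD523_3 or CKD627_2 left 0 members called, CKD523_2 2 and CKD627_1 4. The 20 genes with a difference between prefixes became 2 with no replicate block and 399 by DESeq2. Signs turned only for Bax, Bcl2l2 and Bak1. Bax was 0.092 in prefix CKD523 alone and -0.47 in prefix CKD627 alone, and with the pairing between -0.25 and 0.041 without any 1 pair. Bcl2l2 was -0.50 in prefix CKD523 alone and 0.093 in prefix CKD627 alone. Bak1 was 0.31 in prefix CKD523 alone and -0.049 in prefix CKD627 alone, and lay between -0.066 and 0.28 without any 1 library. Pmaip1, Bcl2l11, Bmf and Bbc3 kept their direction in all 20 unpaired and 9 paired alternatives. So did the survival genes Bcl2, Bcl2l1 and Mcl1, none of which passed. The causes were not tested.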
